A study of Rattus norvegicus with 6 samples.

Results

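The genes described here are Apoe and the genes of cholesterol efflux and lipoprotein handling that work with it: Apoe, Abca1, Abcg1, Nr1h2, Nr1h3, Mylip, Vldlr, Lrp1, Lpl and Clu. They were chosen by name, as the rows of the deposited read count and FPKM tables that carry these symbols. The rule uses no measured value, but the list was drawn up with earlier results of these data known. Of the 10 genes, 9 had a row among the 18746 genes of the count table, and 8 of these passed the filter on low counts and were among the 12420 genes tested. Mylip had a row but fell below the filter, and Lpl was not analysed here. The study asked how the transcriptome of PC12 cells, which were established from a pheochromocytoma of the rat adrenal medulla, responded to knockdown of NQO1, a quinone oxidoreductase of the antioxidant response that also binds RNA. The siNQO1 group consisted of 3 samples transfected with a reagent against NQO1, and the siCtrl group consisted of 3 samples transfected with a control. Both groups were transfected by lipofection in the same medium, and polyadenylated RNA was sequenced on a stranded library protocol. The study's methods describe both reagents as siRNAs, of which 1 duplex was used against NQO1, whereas the sample labels describe an shRNA and a control plasmid. The labels do not say that the samples came from separate cultures, so the p-values cover only how far these samples vary, which may be technical.

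The liver X receptors LXRalpha and LXRbeta, encoded by Nr1h3 and Nr1h2, are nuclear receptors that bind oxysterols and desmosterol and work as heterodimers with retinoid X receptors. They are known to switch on Abca1 and Abcg1, which move cholesterol out of the cell onto lipid-poor and lipid-loaded particles, Apoe, which carries that lipid, and Mylip, a ubiquitin ligase that sends lipoprotein receptors to degradation. Vldlr and Lrp1 take up particles that carry apolipoprotein E, clusterin (Clu) is another lipid-binding chaperone of the brain, and APOE is the best-known genetic risk locus of late-onset Alzheimer's disease.

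The promoters of Abca1 and Apoe are shown because these genes are established LXR targets, and because the motif searched is the one LXR heterodimers are known to bind, a pair of AGGTCA-like hexamers in the same direction with 4 bases between them. The sequences were taken from RefSeq on the GRCr8 assembly, read 5′ to 3′ toward the start of transcription, and each holds the 250 bases before it. Abca1 lies on the minus strand at chr5:72596474-72596723. Apoe has 3 annotated starts on the minus strand, and the middle one is shown, at chr1:88484700-88484949. Capitals mark the GGGCGG box, which Sp1-type factors are known to bind, on either strand, and the loosened repeat described after them.
Abca1: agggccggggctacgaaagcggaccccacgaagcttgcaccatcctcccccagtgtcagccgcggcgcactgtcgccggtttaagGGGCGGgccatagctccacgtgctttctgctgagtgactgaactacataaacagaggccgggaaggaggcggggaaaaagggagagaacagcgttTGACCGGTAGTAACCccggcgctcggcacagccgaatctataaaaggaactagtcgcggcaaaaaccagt
Apoe: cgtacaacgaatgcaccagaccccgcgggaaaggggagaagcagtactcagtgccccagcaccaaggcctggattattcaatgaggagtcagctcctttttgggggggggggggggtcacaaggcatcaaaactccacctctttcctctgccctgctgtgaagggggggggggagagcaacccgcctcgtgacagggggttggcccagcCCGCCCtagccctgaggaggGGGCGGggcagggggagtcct
Windows of this length were found for 7 of the 10 genes (Apoe, Abca1, Nr1h2, Nr1h3, Mylip, Vldlr and Lrp1). AGGTCA itself, searched on both strands, was in none of these windows and in 14.1% of 33469 rat promoters. A looser form of the repeat, which keeps GGTNA of each hexamer at the same spacing, was found in the Abca1 window alone among the 7 genes, from 70 to 56 bases before the start on the minus strand, and in 0.592% of all promoters. The GGGCGG box was found once in the Abca1 window, from 165 to 160 bases before the start, and at 2 places in the Apoe window, from 41 to 36 and from 21 to 16 bases before it. This box was in 30.5% of all promoters. The Abca1 window also held TATAAA from 32 to 27 bases before the start, as 12.9% of all promoters did somewhere, and the palindrome CACGTG from 149 to 144 bases before it, as 5.59% did. These are matches of letters, and whether any factor bound there was not measured.

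The libraries held 28873824 to 39467230 reads in genes. Nqo1 itself checks the labels: its level was 368.62, 320.51 and 345.29 FPKM in the siCtrl libraries and 80.78, 75.2 and 77.72 FPKM in the siNQO1 libraries, which left 22.6% of the control mean (log2 fold change -2.13, SE 0.066, adjusted p = 1.54e-06 by edgeR's quasi-likelihood test with Benjamini-Hochberg adjustment over all genes tested). The siCtrl replicate 2 library stood apart, with a correlation of log2 CPM of 0.986 to 0.989 with the other siCtrl libraries and 0.989 to 0.990 with the siNQO1 libraries. Calls that change without it are given below for the members, the called pathway genes and the most abundant gene of each pathway list. Over all pathway lists, 13 genes were called higher and 21 lower without it, against 4 and 11 with all libraries. The further genes are not named, and the counts by list are from all 6 libraries. The libraries went against the chromaffin origin that the PC12 label names: of 10 chromaffin markers 8 had a row, and all 8 lay under 1 FPKM in every library, with a summed level of 0.65 to 0.66 FPKM in siCtrl and 0.47 to 0.54 FPKM in siNQO1. Tyrosine hydroxylase (Th), the defining enzyme of catecholamine synthesis, averaged 0.08 FPKM in siCtrl. All 5 Schwann cell markers reached 1 FPKM, with a summed level of 469.5 to 536.5 FPKM in siCtrl and 416.5 to 422.7 FPKM in siNQO1, mostly Sox10 and S100b. Markers of macrophages and microglia, cells that express much of the LXR program, summed to 0.90 to 1.49 FPKM in siCtrl and 1.00 to 1.56 FPKM in siNQO1, and 6 of the 7 with a row lay under 1 FPKM in every library.

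Apoe and Abcg1 rose after NQO1 knockdown, by 1.61-fold and 1.32-fold, and none of the 8 genes tested fell. The other 6 genes tested did not pass: log2 fold changes were 0.35 for Abca1, 0.22 for Vldlr, 0.16 for Nr1h3, -0.03 for Nr1h2, -0.08 for Lrp1 and -0.09 for Clu. The 2 rises among 8 genes stand beside 5.27% of all genes tested that were called higher, and the 0 falls beside 7.38% called lower. In the fit used here, none of the 8 genes passed an adjusted p under 0.05 together with a fold over 2. These are the study's own thresholds, and 0.435% of all genes tested passed them in this fit. The study itself, also with edgeR, listed Apoe among its upregulated genes and reported a rise by RT-qPCR. In the authors' own deposited FPKM the Apoe means were 1.40 in siCtrl and 2.24 in siNQO1, a rise of 60%, which is also short of a fold of 2. Why the study's list and this fit differ was not tested. The median log2 fold change of the 8 genes was 0.19, against 0.01 over all genes tested. In bulk RNA, more transcript per cell and more cells that express a gene cannot be told apart.

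**Figure D1:**
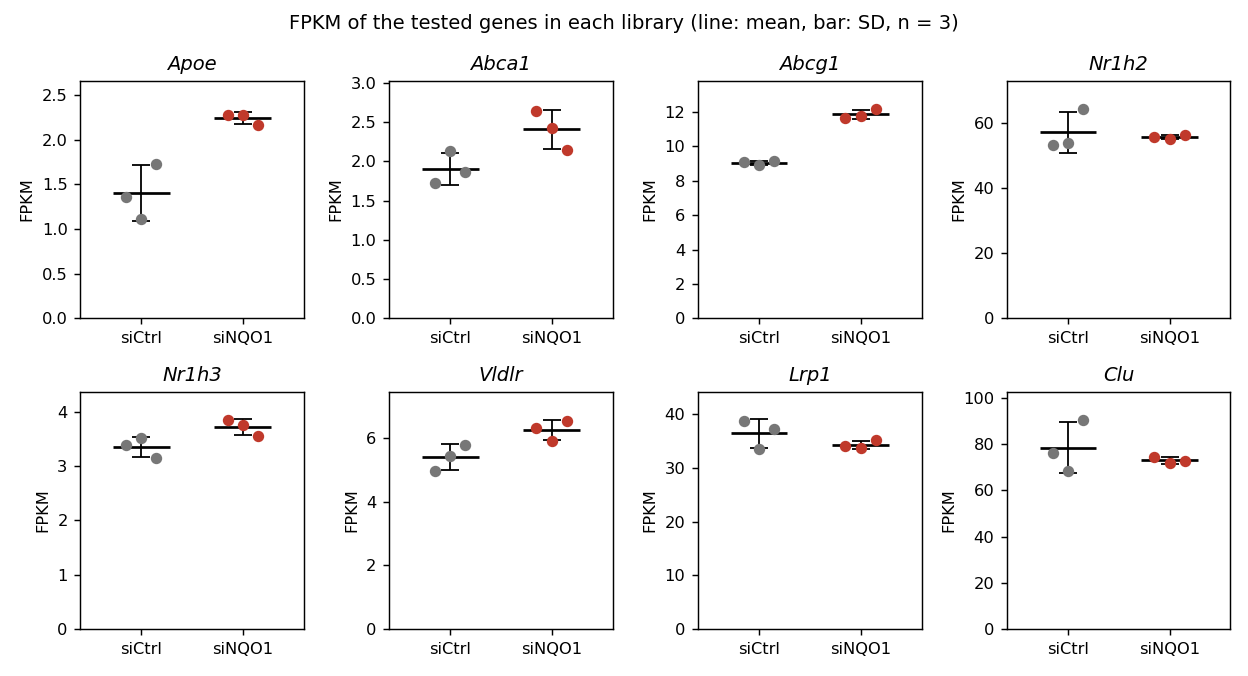
Level of each of the 8 genes tested, in FPKM (vertical axes, each from 0), in the 3 siCtrl libraries (grey) and the 3 siNQO1 libraries (red). The line is the mean and the bar the SD over 3 libraries. The groups do not overlap for Apoe, Abca1, Abcg1, Nr1h3 and Vldlr, and they overlap for Nr1h2, Lrp1 and Clu.

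**Figure D2:**
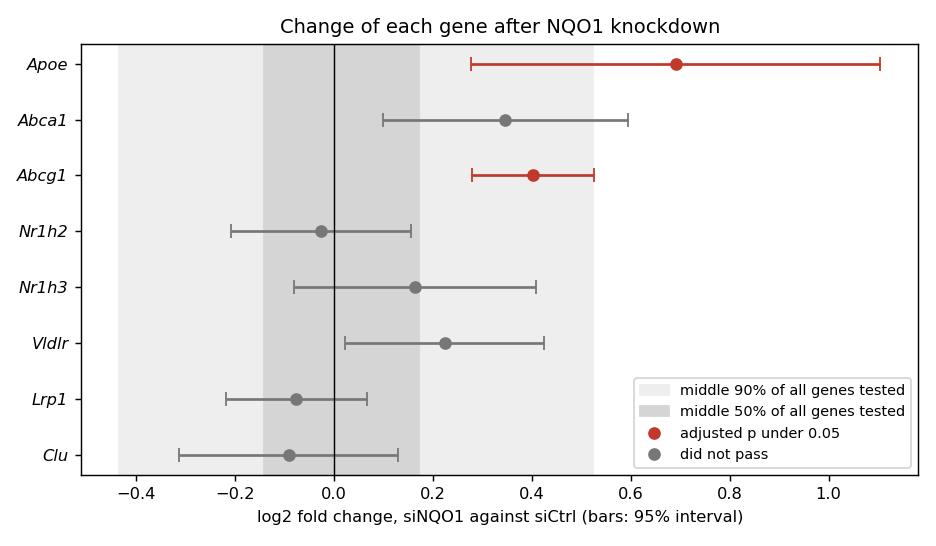
Log2 fold change of siNQO1 against siCtrl for each of the 8 genes tested (horizontal axis), with its 95% interval from edgeR. Shaded bands hold the middle 50% and the middle 90% of all genes tested, and red points passed an adjusted p under 0.05. Apoe, at 0.69, is the point outside the wider band, which ends at 0.52, and Abcg1 lies inside it at 0.40.

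The members covered a wide range of levels. FPKM is per transcript length and so allows genes to be set beside each other. In siCtrl the order of mean FPKM was Clu (78.5), Nr1h2 (57.1), Lrp1 (36.5), Abcg1 (9.06), Vldlr (5.397), Nr1h3 (3.35), Abca1 (1.91), Apoe (1.40) and Mylip (0.02). Over all 6 libraries, the ranges of neighbours in this order did not overlap, except those of Abca1 (1.73 to 2.64 FPKM) and Apoe (1.11 to 2.28 FPKM). The gap between Clu, whose lowest library stood at 68.58 FPKM, and Nr1h2, whose highest stood at 64.39 FPKM, was narrow. By mean FPKM in siCtrl, Clu lay at percentile 90.7 of the genes tested and Apoe at percentile 21.7, so the gene with the largest change of the 8 was also the one at the lowest level. Apoe was counted with 70 to 153 reads per library and Abcg1 with 1174 to 2158.

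Of the receptors, Nr1h2, which encodes the broadly expressed LXRbeta, was the abundant form. Its level was 53.24, 53.71 and 64.39 FPKM in siCtrl and 55.56, 54.95 and 56.38 FPKM in siNQO1. All siNQO1 values lay within the span of the siCtrl values, whose high end was set by replicate 3. The log2 fold change was -0.03 (SE 0.080, 95% interval -0.21 to 0.16, adjusted p = 0.862 by edgeR), and without siCtrl replicate 3 it was 0.08. Nr1h3, which encodes LXRalpha, the form typical of liver and macrophages, stood at 3.39, 3.51 and 3.15 FPKM in siCtrl and 3.85, 3.75 and 3.56 FPKM in siNQO1. The groups were apart, with the highest siCtrl library at 3.51 FPKM and the lowest siNQO1 library at 3.56 FPKM, yet the edgeR test did not pass (log2 fold change 0.16, SE 0.107, 95% interval -0.08 to 0.41, adjusted p = 0.350). The FPKM ratio of Nr1h2 to Nr1h3 was 15.7, 15.3 and 20.4 in siCtrl and 14.4, 14.7 and 15.8 in siNQO1, and the groups overlapped (exact two-sided permutation test, p = 0.30).

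Abcg1, the transporter that loads cholesterol onto HDL-type particles, gave the firmest change. Its level was 9.10, 8.93 and 9.15 FPKM in the siCtrl libraries and 11.64, 11.79 and 12.17 FPKM in the siNQO1 libraries, which corresponds to 9.06 ± 0.115 and 11.9 ± 0.273 FPKM (SD, n = 3). Every siNQO1 library was above every siCtrl library, and the distance between the groups was larger than the spread within either. The log2 fold change was 0.40 (SE 0.054), or 1.32-fold with a 95% interval of 1.21 to 1.44 (adjusted p = 0.003065 by edgeR's quasi-likelihood test). The call was kept when any of the 6 libraries was left out, with log2 fold changes of 0.38 to 0.42 and adjusted p up to 0.0258, and under all 12 alternative settings.

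Abca1, the full transporter that starts the assembly of HDL by lipidating apolipoproteins, stood at 1.73, 2.13 and 1.86 FPKM in siCtrl and 2.64, 2.43 and 2.15 FPKM in siNQO1. The groups did not overlap, but siCtrl replicate 2, at 2.13 FPKM, nearly met siNQO1 replicate 3, at 2.15 FPKM. The log2 fold change was 0.35 (SE 0.109, 95% interval 0.10 to 0.59) with an unadjusted p of 0.0116 and an adjusted p of 0.0713 by edgeR, so the gene did not pass. It passed with DESeq2 (adjusted p = 0.0299), without the filter on low counts (adjusted p = 0.0471) and without siCtrl replicate 2 (log2 fold change 0.43, adjusted p = 0.00485), and over the other settings the adjusted p reached 0.267. The ratio of Abcg1 to Abca1 in FPKM ran from 4.19 to 5.26 in siCtrl and from 4.41 to 5.66 in siNQO1 and overlapped between the groups (exact two-sided permutation test, p = 0.80).

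Apoe, the lipid-carrying apolipoprotein of brain and liver, had the largest change of the 8 genes and the least certain one of the 2 rises. Reads numbered 70, 70 and 109 in the siCtrl libraries and 137, 135 and 153 in the siNQO1 libraries, and the level was 1.36, 1.11 and 1.73 FPKM against 2.28, 2.28 and 2.16 FPKM. The siNQO1 libraries lay close together and above all siCtrl libraries, which were spread widely, so that the means were 1.40 ± 0.312 and 2.24 ± 0.0693 FPKM (SD, n = 3), a difference of 60.0%. The log2 fold change was 0.69 (SE 0.182), or 1.61-fold with a 95% interval of 1.21 to 2.15 (adjusted p = 0.0411 by edgeR's quasi-likelihood test). The call was kept under each alternative scaling, filter, test and unit, and it was lost in the remaining setting, the replicate number as a block. It was lost in 4 of the 6 fits that left out 1 library, which also held fewer samples: without siCtrl replicate 1 (adjusted p = 0.101) and without siNQO1 replicate 1 (0.126), replicate 2 (0.138) or replicate 3 (0.107). The log2 fold change stayed between 0.54 and 0.89 in these 6 fits, and the lowest was without siCtrl replicate 2. An exact permutation test of 3 libraries against 3 gave p = 0.10 for Apoe, which is the smallest two-sided p this design allows.

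Clu, the chaperone also called apolipoprotein J, was far more abundant than Apoe and did not pass. Its level was 76.37, 68.58 and 90.6 FPKM in siCtrl and 74.69, 71.93 and 72.65 FPKM in siNQO1. The siNQO1 values fell inside the siCtrl span (log2 fold change -0.09, SE 0.097, 95% interval -0.31 to 0.13, adjusted p = 0.577 by edgeR). Without siCtrl replicate 2, the lowest siCtrl library, Clu was called lower (log2 fold change -0.19, adjusted p = 0.0480), and without siCtrl replicate 3, the highest, the log2 fold change was 0.04. The FPKM ratio of Clu to Apoe was 56.2, 61.8 and 52.4 in siCtrl and 32.8, 31.5 and 33.6 in siNQO1, with no overlap (exact two-sided permutation test, p = 0.10).

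The lipoprotein receptors were described by Lrp1, a large endocytic receptor for many ligands, and Vldlr, which binds apolipoprotein E and reelin. Lrp1 stood at 38.8, 33.53 and 37.2 FPKM in siCtrl and 34.12, 33.7 and 35.19 FPKM in siNQO1. All siNQO1 libraries were below siCtrl replicates 1 and 3 and above siCtrl replicate 2, and the test did not pass (log2 fold change -0.08, SE 0.063, 95% interval -0.22 to 0.07, adjusted p = 0.468 by edgeR). Without siCtrl replicate 2, Lrp1 was called lower (log2 fold change -0.14, adjusted p = 0.00868), as were 16.1% of all genes tested in that fit, with 17.2% called higher. Vldlr stood at 4.97, 5.45 and 5.77 FPKM in siCtrl and 6.30, 5.91 and 6.55 FPKM in siNQO1. Its groups did not overlap, but the gene did not pass (log2 fold change 0.22, SE 0.088, 95% interval 0.02 to 0.43, adjusted p = 0.134 by edgeR). The FPKM ratio of Lrp1 to Vldlr was 7.81, 6.15 and 6.45 in siCtrl and 5.42, 5.70 and 5.37 in siNQO1, without overlap (exact two-sided permutation test, p = 0.10). Only these 4 ratios were computed, and with Benjamini-Hochberg adjustment over them the exact permutation p was 0.20 for Clu to Apoe and Lrp1 to Vldlr, 0.40 for Nr1h2 to Nr1h3 and 0.80 for Abcg1 to Abca1.

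Mylip, the degrader of lipoprotein receptors, was at the limit of detection. Its reads numbered 3, 1 and 1 in siCtrl and 2, 1 and 0 in siNQO1, or at most 0.03 FPKM, so no fold was computed. Across the 8 genes tested, the FPKM ranges of the groups were apart in 5 (Apoe, Abca1, Abcg1, Nr1h3 and Vldlr), each time with siNQO1 above, beside 33.6% of all genes tested whose ranges were apart in either direction.

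**Figure D3:**
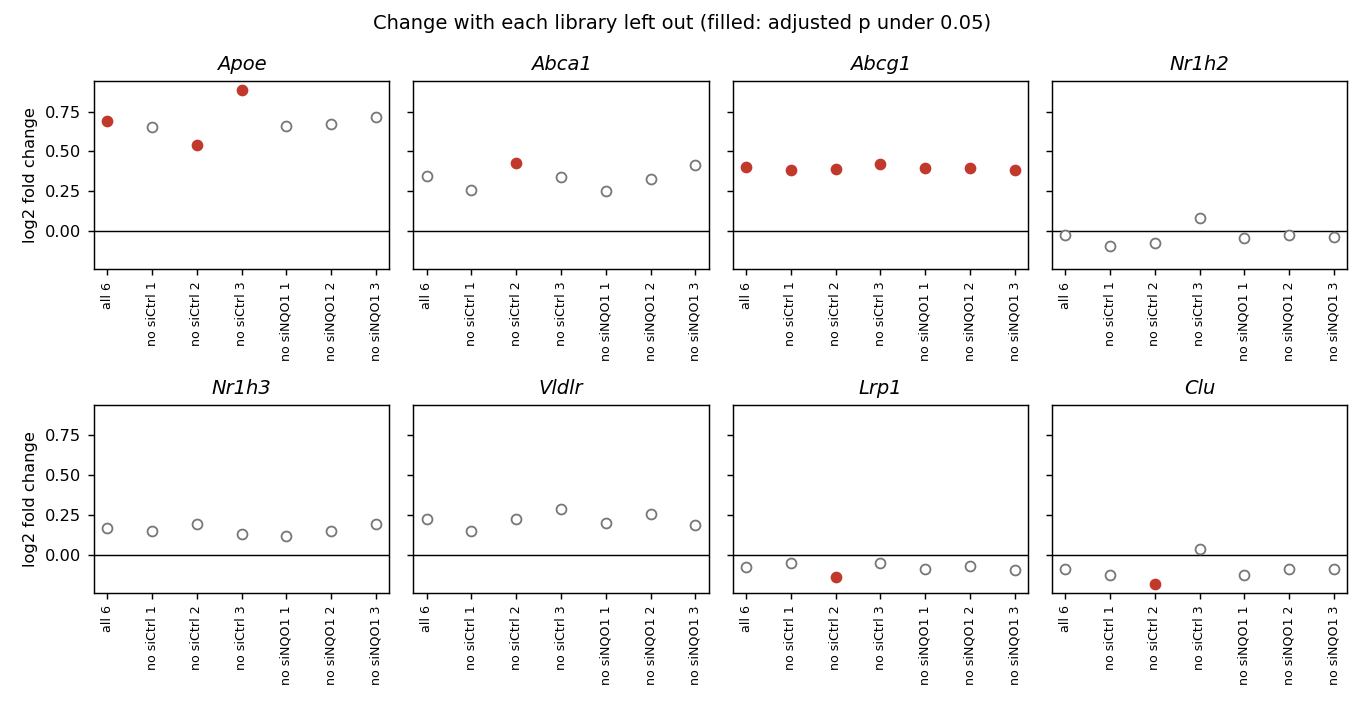
Log2 fold change of each of the 8 genes with all 6 libraries and with 1 library left out (horizontal axis, library left out), with 1 vertical scale throughout. Filled points passed an adjusted p under 0.05. Abcg1 is filled throughout at 0.38 to 0.42, Apoe is filled with all libraries and in 2 of the 6 fits, and Lrp1 and Clu are filled, below 0, in the fit without siCtrl replicate 2.

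Other genes of the same pathways were followed in 8 lists of 144 symbols, of which 97 were tested. In all, 4 of the 97 rose and 11 fell, or 15.5% against 12.6% of all genes tested, and their median log2 fold change was -0.04. Among the 13 retinoid X receptors, coactivators and corepressors that LXR works with, Rxrg, a retinoid X receptor, fell (0.71 to 0.35 mean FPKM, log2 fold change -1.002, adjusted p = 0.0203 by edgeR). None of the 13 rose, which is near the background of 5.27% called higher, and their median log2 fold change was 0.11. The most abundant of them, the histone deacetylase Hdac3 of the corepressor complex (57.9 FPKM in siCtrl), did not pass, but was called lower without siCtrl replicate 2 (log2 fold change -0.25, adjusted p = 0.00171 by edgeR).

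Of 22 symbols of other established LXR targets, 11 were tested. Of these, 0 were called higher and 2 lower, beside 5.27% and 7.38% of all genes tested, so that a count of 0 among 11 is near the background, and their median log2 fold change was -0.14. Srebf1, which encodes the sterol response factor SREBP-1 and is a classical LXR target, stood at 0.81, 0.86 and 0.82 FPKM in siCtrl and 0.57, 0.43 and 0.58 FPKM in siNQO1. Its groups were apart (log2 fold change -0.65, adjusted p = 0.0298 by edgeR). Scd2, a fatty acid desaturase, fell from 203.32, 198.03 and 211.29 FPKM to 162.79, 156.26 and 159.96 FPKM (log2 fold change -0.34, adjusted p = 0.00588 by edgeR). Npc2, the lysosomal cholesterol carrier and the most abundant gene of the list, averaged 403 FPKM in siCtrl and 440 FPKM in siNQO1 (log2 fold change 0.14, adjusted p = 0.210). The rises of Apoe and Abcg1 stood beside the falls of Srebf1 and Scd2.

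None of the 8 tested apolipoprotein genes other than Apoe and Clu passed, of 21 symbols. As 12.6% of all genes tested were called, a count of 0 among 8 is near the background. The most abundant gene of this list was the mitochondrial Apoo at 21.0 FPKM in siCtrl. Of 14 related lipoprotein receptor genes, 11 were tested, and Lrp12 fell from a mean of 6.96 to 4.98 FPKM (log2 fold change -0.47, adjusted p = 0.0187 by edgeR). Of the 13 tested genes for receptor chaperones, adaptors and degradation, Reln, the ligand of Vldlr and Lrp8, fell (log2 fold change -0.36, 11.8 to 9.09 mean FPKM), as did Dab2, an endocytic adaptor of the family (-0.32, 11.3 to 8.98 mean FPKM). None of the 13 rose, which is near the background, as 5.27% of all genes tested were called higher. The most abundant genes of these lists were Lrp10 (120 FPKM in siCtrl, 111 in siNQO1) and the ubiquitin-conjugating enzyme Ube2d3 (171 and 148), and neither passed. Without siCtrl replicate 2, Lrp10 was called lower (log2 fold change -0.17, adjusted p = 0.00817 by edgeR).

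The genes of sterol synthesis and its control were called in both directions. Insig1, which holds SREBP precursors in the endoplasmic reticulum, rose from 11.05, 13.4 and 12.19 FPKM to 22.46, 21.63 and 21.35 FPKM (log2 fold change 0.85, adjusted p = 0.000604 by edgeR). Dhcr7, the last enzyme of the pathway to cholesterol through 7-dehydrocholesterol, rose from 11.41, 10.06 and 12.97 FPKM to 17.7, 16.55 and 17.58 FPKM (log2 fold change 0.60, adjusted p = 0.00654 by edgeR). In both genes the groups did not overlap. Of the 11 genes tested in that list 2 were called higher and 1 lower, and the median log2 fold change was -0.11.

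Among 17 tested genes of sterol transport and related ABC transporters, Osbpl6, an oxysterol-binding protein relative, rose (0.47 to 0.74 mean FPKM, log2 fold change 0.66, adjusted p = 0.00848 by edgeR). Soat1, which esterifies cholesterol for storage, fell from 12.6 to 9.28 mean FPKM (log2 fold change -0.42, adjusted p = 0.0106), Abca3 fell from 12.3 to 10.3 (-0.25, adjusted p = 0.0282) and Osbp fell from 15.4 to 13.2 (-0.21, adjusted p = 0.0396). Cav1, the caveolar coat protein and the most abundant gene of that list at 437 FPKM in siCtrl, did not pass. Among 13 tested genes for assembly, anchoring and inhibition of lipoprotein lipase, Furin, a protease that cleaves proproteins, fell from 51.99, 49.1 and 56.12 FPKM to 35.24, 33.01 and 34.35 FPKM (log2 fold change -0.60, adjusted p = 0.00133 by edgeR). Pnpla2, chosen after its values were seen as the far point of that list, had a log2 fold change of 2.84 that rested on siNQO1 replicate 1 at 1.24 FPKM, with the other 5 libraries at 0.05 to 0.15 FPKM, and it did not pass.

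Among the pathway genes called, Furin, Scd2, Insig1 and Dhcr7 kept their calls when any 1 library was left out. Osbpl6 and Soat1 lost theirs without siNQO1 replicate 2 (adjusted p = 0.0612 and 0.0597 by edgeR) or 3 (0.0521 and 0.0510). Lrp12 and Reln lost theirs without siNQO1 replicate 1, 2 or 3 (0.0520 to 0.107 and 0.0515 to 0.0741). Dab2 did not pass without siCtrl replicate 1 or any 1 siNQO1 library (0.0507 to 0.107), nor did Rxrg and Abca3 without siCtrl replicate 3 or any 1 siNQO1 library (0.0598 to 0.0893 and 0.0523 to 0.0989). Srebf1 kept its call with siCtrl replicate 2 left out alone (0.0579 to 0.108 in the other fits), and Osbp lost its call without siCtrl replicate 1 or 3 or siNQO1 replicate 2 or 3 (0.0622 to 0.119). Direction was kept by each of these genes in each fit.

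**Figure D4:**
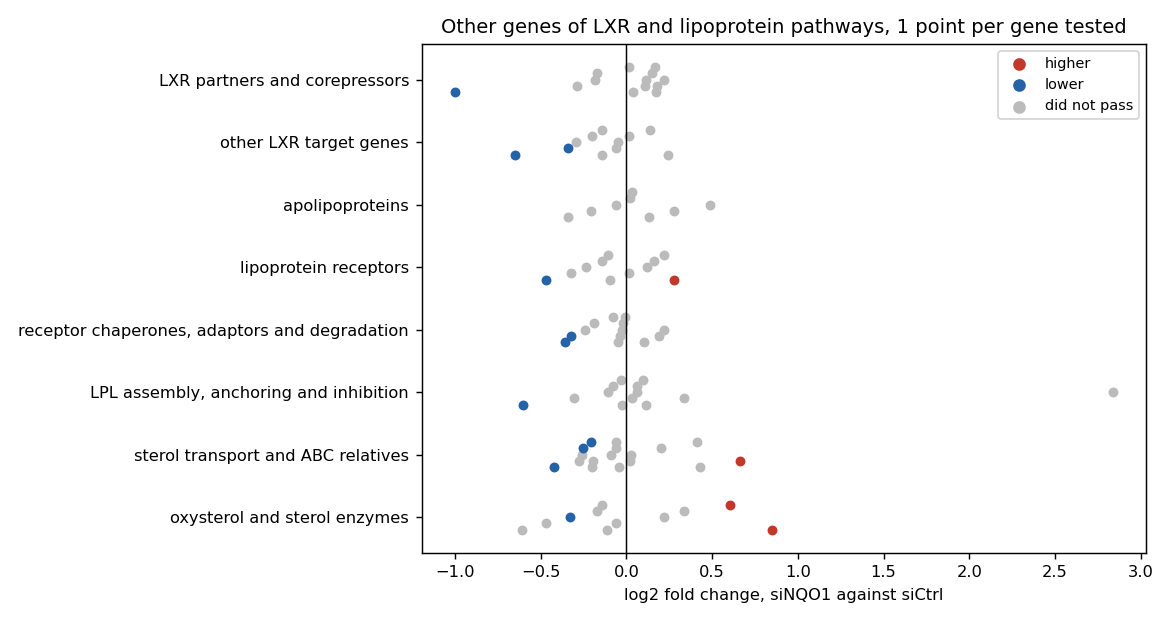
Log2 fold change of siNQO1 against siCtrl (horizontal axis) for the 97 tested genes of the 8 pathway lists (rows), 1 point per gene. Red and blue points passed an adjusted p under 0.05 as higher (4 genes) or lower (11 genes), and grey points did not pass. The point at 2.84 is Pnpla2, which rests on 1 library.

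Markers of other cell types moved with the groups beside these genes. Of the 5 Schwann cell markers, 2 were called lower and 1 higher. S100b fell from a mean of 236 to 171 FPKM and Erbb3 fell from 48.7 to 35.8 FPKM, while Sox10 (218 and 202 FPKM) did not pass. Of the other lists with a row, 4 of 6 astrocyte markers, 4 of 5 adipocyte markers and 2 of 3 fibroblast markers lay under 1 FPKM in every library. Summed levels in siCtrl and siNQO1 were 224.5 to 254.7 and 172.4 to 178.5 FPKM for astrocyte markers, mostly S100b, 5.2 to 5.8 and 4.91 to 5.18 FPKM for adipocyte markers, and 50.6 to 51.4 and 46.0 to 49.3 FPKM for fibroblast markers, mostly Pdgfra. Their part in the changes of Apoe, Abcg1 and the pathway genes was not tested.

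As a description, the genes whose log2 CPM followed Apoe most closely over the 6 libraries, among 11096 genes, were LOC102555453 and Usf2 (Pearson r = 0.997 each), Ndrg2 (0.995), Marcksl1 (0.993) and Vegfb (0.992). Of these 5, Marcksl1 was called higher (log2 fold change 0.24, adjusted p = 0.0384 by edgeR) and the others did not pass. The genes closest to Abcg1 were Cebpd and Gnai2 (r = 0.998 each) and Tradd (0.997), and these 3 were called higher, with log2 fold changes of 0.69, 0.40 and 0.76. The points of each correlation share the group difference, the library and its depth.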

How the data were processed

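Polyadenylated RNA of 3 siNQO1 and 3 siCtrl samples was sequenced on a stranded kit. According to the study's methods, the authors trimmed reads and aligned them to the RGSC6 genome with TopHat2, and bcl2fastq and edgeR are the other tools in the submitters' processing notes. Read counts were deposited as whole numbers of uniquely mapped reads per gene, with no normalization. FPKM values were deposited as the authors scaled them, by transcript length and mapped reads. The counting tool and its strand setting were not given in the sources used here. Overlapping genes may share reads.

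The counts were fitted with edgeR 4.0.16 in R 4.3.3: filterByExpr by group, TMM scaling, glmQLFit and glmQLFTest without covariates, and Benjamini-Hochberg adjustment over the 12420 genes tested. A gene was called at an adjusted p under 0.05. Standard errors are the fitted change over the root of the F value. Deposited columns were matched to samples by name. The fit was tested on simulated data. The genes and pathway lists were chosen with earlier results of these data known. Named genes were the members, Nqo1, up to 6 called genes per direction and list, the most abundant gene of each list, and the 5 (Apoe) or 3 (Abcg1) genes most alike in log2 CPM, with a prior count of 2 and a mean log2 CPM over 0. A few genes these rules select are not reported. Where a symbol had more than 1 row, the row with more reads was used.

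Alternatives were other scalings, other filters, edgeR's exact and likelihood ratio tests, DESeq2 1.42.0, limma 3.58.1 with voom or on log2(FPKM + 1) and log2(FPKM + 0.1), a block for the replicate number, and fits that left out 1 library each. Promoter windows came from RefSeq (GRCr8), whose build differs from that of the alignment.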

Additional observations from a re-analysis of the deposited data

How the results depend on the processing

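The call of Abcg1 was kept under each of the 12 alternative settings and in each of the 6 fits without 1 library. The members called higher numbered 2, and 1 with the replicate number as a block, where Apoe (adjusted p = 0.0568 by edgeR) lost its call, as did Srebf1 (0.0502) and Osbp (0.0586). Same-numbered libraries deviated together only weakly (r = -0.04, 0.16 and 0.06), so they were not treated as pairs, and the replicate block is given as an alternative. With 1 library left out, members called higher ran from 1 to 3 and members called lower from 0 to 2, and pathway genes called higher ran from 2 to 13 (4 with all libraries) and called lower from 2 to 21 (11 with all libraries). All genes called numbered 1571 with all libraries, 4200 without siCtrl replicate 2, and 518 to 1008 without any other library. Direction turned in fits without 1 library for Nr1h2 (-0.0943 to 0.0798), Clu (-0.186 to 0.0354), Apoo (-0.0393 to 0.0511), Sdc1 (-0.0141 to 0.0530) and Cav1 (-0.0388 to 0.0477), none of them called with all libraries. Osbp also lost its call without the filter (adjusted p = 0.0542), with the exact test (0.0585) and with the likelihood ratio test (0.0575), and Srebf1 on log2(FPKM + 0.1). The cause of these shifts was not tested. The FPKM ranges of the groups were apart in 5 members, and so were the CPM ranges. Low read numbers limit Apoe (70 to 153 per library) and leave Mylip (0 to 3) without a test.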

Other observations

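Genes next to these members on the chromosome were read as well, 3 on each side in the gene order of RefSeq (GRCr8), among protein-coding genes with a row. They were chosen after the members' values were seen. On both sides of Nr1h3, whose own log2 fold change of 0.16 did not pass, the nearest genes fell. Madd fell by 0.78 on the log2 scale (adjusted p = 0.00145 by edgeR's quasi-likelihood test) and Acp2, a lysosomal acid phosphatase, by 0.67 (adjusted p = 0.000486). Madd stood at 3.67 and Acp2 at 36.0 mean FPKM in siCtrl.

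In the Apoe cluster, Apoc1 and Apoc4, further apolipoprotein genes of the locus, had mean levels of 0.09 and 0.07 FPKM in siCtrl and were below the filter. Tomm40, the mitochondrial import pore gene beside Apoe, had a log2 fold change of 0.05 (adjusted p = 0.656 by edgeR), and Clptm1 had -0.18 (adjusted p = 0.122). Beside Abca1, the choline transporter Slc44a1 was called higher by 0.17 on the log2 scale (adjusted p = 0.0436). Shmt2 and Nab2 near Lrp1 were called lower (log2 fold change -0.42 and -0.23), as was Myh14 near Nr1h2 (-0.34). Over all genes tested, 5.27% were called higher and 7.38% lower. No tested neighbour of Abcg1, Vldlr or Clu was called. For Abcg1 only Dnah8 and Umodl1 were tested, and for Vldlr only Smarca2 and Rfx3, the others being below the filter.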
